A study of Homo sapiens with 24 samples.

Results

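The genes of cholesterol and fatty acid synthesis described here are 36 of the 25728 gene symbols counted in each library. They were taken from a fixed list of symbols, which was chosen with earlier results of these data known. They form 3 groups: a sterol arm of 22 genes governed mainly by the transcription factor SREBP2, a fatty acid arm of 11 genes governed mainly by SREBP1, and 3 targets of the liver X receptor (LXR). RNA was sequenced from 3 human acute myeloid leukemia lines (TF-1, then UT-7, then UCSD-AML1), each after 24 h in 3 mM cyclocreatine, a creatine analog that creatine kinases phosphorylate, and each after 24 h in vehicle, with 4 libraries per group and 24 in all. The series presents all 3 as lines driven by EVI1, the product of MECOM, which stood at 13.0 ± 2.43 CPM in TF-1 vehicle, 6.34 ± 0.739 in UT-7 vehicle and 412 ± 14.7 in UCSD-AML1 vehicle (mean ± SD, n = 4; CPM is the count scaled to a common library size with TMM normalisation). Each line is 1 established culture, and no other allele or agent is given in the labels.

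Cells make cholesterol from acetyl-CoA by way of mevalonate, squalene and lanosterol, and make fatty acids from the same acetyl-CoA by way of malonyl-CoA. When membrane sterol is low, SCAP carries the SREBP precursors from the endoplasmic reticulum to the Golgi, where they are cut to release active transcription factors; when sterol is plentiful, INSIG proteins hold SCAP back. SREBP2 drives sterol genes and SREBP1 drives fatty acid genes, with overlap, while LXR, which oxysterols activate, induces sterol export by ABCA1 and ABCG1, receptor degradation by MYLIP, and the gene of SREBP1 itself. Leukemic cells in culture take up sterol from serum and also make it.

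The libraries held between 12794998 and 21200662 counts, and 14588 genes passed the filter on low counts and were tested. All 36 genes passed, although ABCA1 passed through UT-7 alone and ABCG1 through UCSD-AML1 alone. Cytosolic ribosomal protein genes took a share of the counts that was above vehicle in every cyclocreatine library, at 8.48% to 10.2% against 6.33% to 6.61% in TF-1, 6.83% to 7.39% against 5.85% to 6.085% in UT-7, and 7.07% to 7.28% against 5.95% to 6.18% in UCSD-AML1. TF-1 cyclocreatine replicate 1, at 10.2%, also stood apart from its 3 replicates in a principal component analysis. No call of a cyclocreatine effect in TF-1 changed among the 36 genes without that library, although differences between lines did, as given below, and the part of the ribosomal protein shift in the results was not tested. The myeloid markers CD33 and SPI1 were present in vehicle in all 3 lines, at 51.1 to 142.5 CPM for CD33 and 94.35 to 144 CPM for SPI1, while MPO and ELANE, genes of granule-forming myeloid cells, averaged under 1 CPM in every vehicle group. Globin HBG2 stood at 791 CPM in TF-1 and 585 CPM in UT-7, and at 2 counts in all over UCSD-AML1 vehicle. Of the lymphoid and hepatocyte markers, those above 1 CPM in a vehicle group were CD79A in UCSD-AML1 (36.9 CPM) and TF-1 (2.38 CPM), CD3E in UCSD-AML1 (2.7 CPM) and ALB in TF-1 (6.67 CPM).

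Cyclocreatine was followed by different responses of the 2 arms, and of the sterol arm in the 3 lines. In UT-7 most of the sterol arm rose: 13 genes were higher, 2 were lower and 7 were not called, by edgeR's quasi-likelihood test with a Benjamini-Hochberg adjusted p under 0.05 over all 14588 genes. The sterol arm was mixed in TF-1, with 8 genes higher, 10 lower and 4 not called, and in UCSD-AML1, with 8 higher, 3 lower and 11 not called. In the fatty acid arm 0 genes rose and 9 of 11 fell in TF-1, 3 rose and 6 fell in UT-7, and 0 rose and 5 fell in UCSD-AML1. Beside this, cyclocreatine changed much of the transcriptome: of all genes tested, 26.7% were called higher and 29.3% lower in TF-1, 22.5% higher and 23.3% lower in UT-7, and 19.1% higher and 21.3% lower in UCSD-AML1. Separate cultures behind the 4 replicates of each group are not stated by the labels; a p-value here therefore covers just the spread among those libraries, which may be technical. In these bulk samples, fewer cells of a type and less RNA per cell cannot be told apart.

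The median log2 fold change of the sterol arm, cyclocreatine over vehicle, was -0.09 for TF-1 (all genes tested, -0.008), 0.25 for UT-7 (all genes, 0) and 0.02 for UCSD-AML1 (all genes, -0.005). Fatty acid genes had a median of -0.35 for TF-1, -0.115 for UT-7 and -0.095 for UCSD-AML1. Scaling by library totals alone, in place of TMM, moved the median of all genes in TF-1 by -0.079 and the sterol median there to -0.17, and gave 5 sterol genes higher and 12 lower; with it, 36.5% of all genes called in TF-1 were higher, against 47.7% with TMM. Direction was therefore read gene by gene, with the scaling named where it ended a call.

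Per library, the mean log2 difference of the sterol arm from the vehicle mean of its line was -0.117 to -0.075 in TF-1 cyclocreatine, against -0.020 to 0.027 in TF-1 vehicle. In UT-7 it was 0.241 to 0.328 with cyclocreatine, against -0.016 to 0.016 with vehicle. UCSD-AML1 gave -0.003 to 0.052 with cyclocreatine, against -0.031 to 0.031 with vehicle. So all treated UT-7 libraries lay above their vehicle libraries, all treated TF-1 libraries lay a little below theirs, and the UCSD-AML1 groups overlapped. The TF-1 mean includes INSIG1, at a log2 fold change of -1.075. By the median over the genes, TF-1 was at -0.094 to -0.069 with cyclocreatine, against -0.027 to 0.027 with vehicle. That gap is close in size to the scaling shift of -0.079 given above. For the mean of the fatty acid arm the treated libraries lay below the vehicle libraries in every line. They were at -0.452 to -0.326 against -0.037 to 0.035 in TF-1 and -0.196 to -0.150 against -0.010 to 0.010 in UT-7. In UCSD-AML1 they were at -0.169 to -0.156 against -0.033 to 0.031. This mean includes SREBF1 itself, at a log2 fold change of -0.906 in UT-7 and -0.373 in UCSD-AML1. Not every gene fell: 3 of 11 rose in UT-7, and 6 were not called in UCSD-AML1. The gap between the arms, sterol minus fatty acid, was 0.27 ± 0.05 in TF-1 cyclocreatine, 0.47 ± 0.05 in UT-7 cyclocreatine and 0.19 ± 0.02 in UCSD-AML1 cyclocreatine (mean ± SD, n = 4 each), and vehicle libraries ran from -0.043 to 0.064 over the 3 lines.

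**Figure D1:**
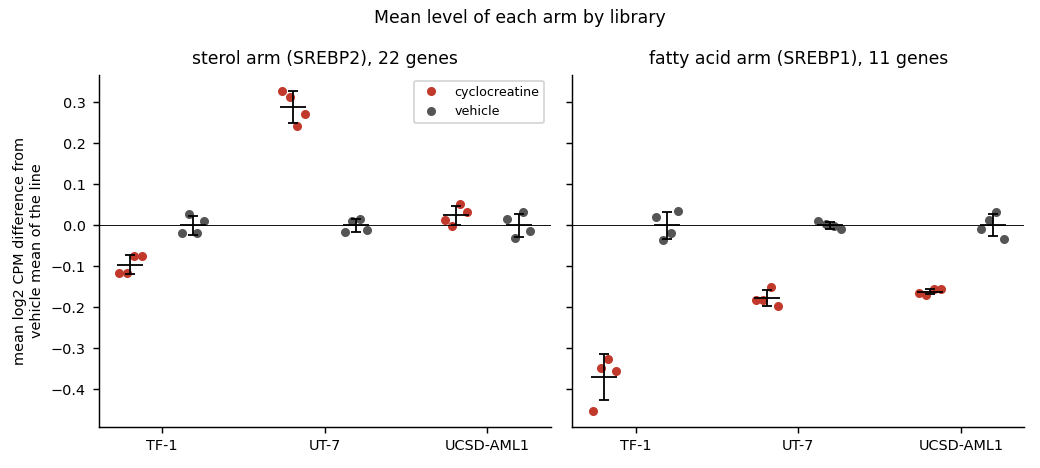
Mean over the genes of each arm of the log2 CPM difference from the vehicle mean of the line (y axis), for the 4 cyclocreatine libraries (red, left) and 4 vehicle libraries (grey, right) of TF-1, UT-7 and UCSD-AML1 (x axis); points are libraries and the bar and whiskers are mean and SD. Treated UT-7 libraries sit at 0.241 to 0.328 in the sterol arm, and treated libraries of all 3 lines sit below their vehicle libraries in the fatty acid arm.

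Across the 3 lines, 5 genes rose in every line: ACAT2, MVK, FDFT1, MSMO1 and SREBF2, all of the sterol arm. A further 4 fell in every line: SREBF1, FADS2, ELOVL6 and LPIN1, all of the fatty acid arm. In 8 genes a line with a rise stood beside a line with a fall: HMGCS1, MVD, SQLE, LSS, CYP51A1, DHCR7, SCD and ACSS2. HSD17B7, ACACA and ABCA1 were called in no line, 8 genes rose in 1 or 2 lines with no opposite call, and 8 fell in 1 or 2 lines with no opposite call. The share of all genes tested with each of these patterns was not counted, so none of these counts is set against a background. Of the calls behind these groups, that of SREBF2 in TF-1 was lost with library totals alone (edgeR adjusted p = 0.136). The rises of DHCR7 and ACSS2 in UT-7 were lost under several alternatives, given below.

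**Figure D2:**
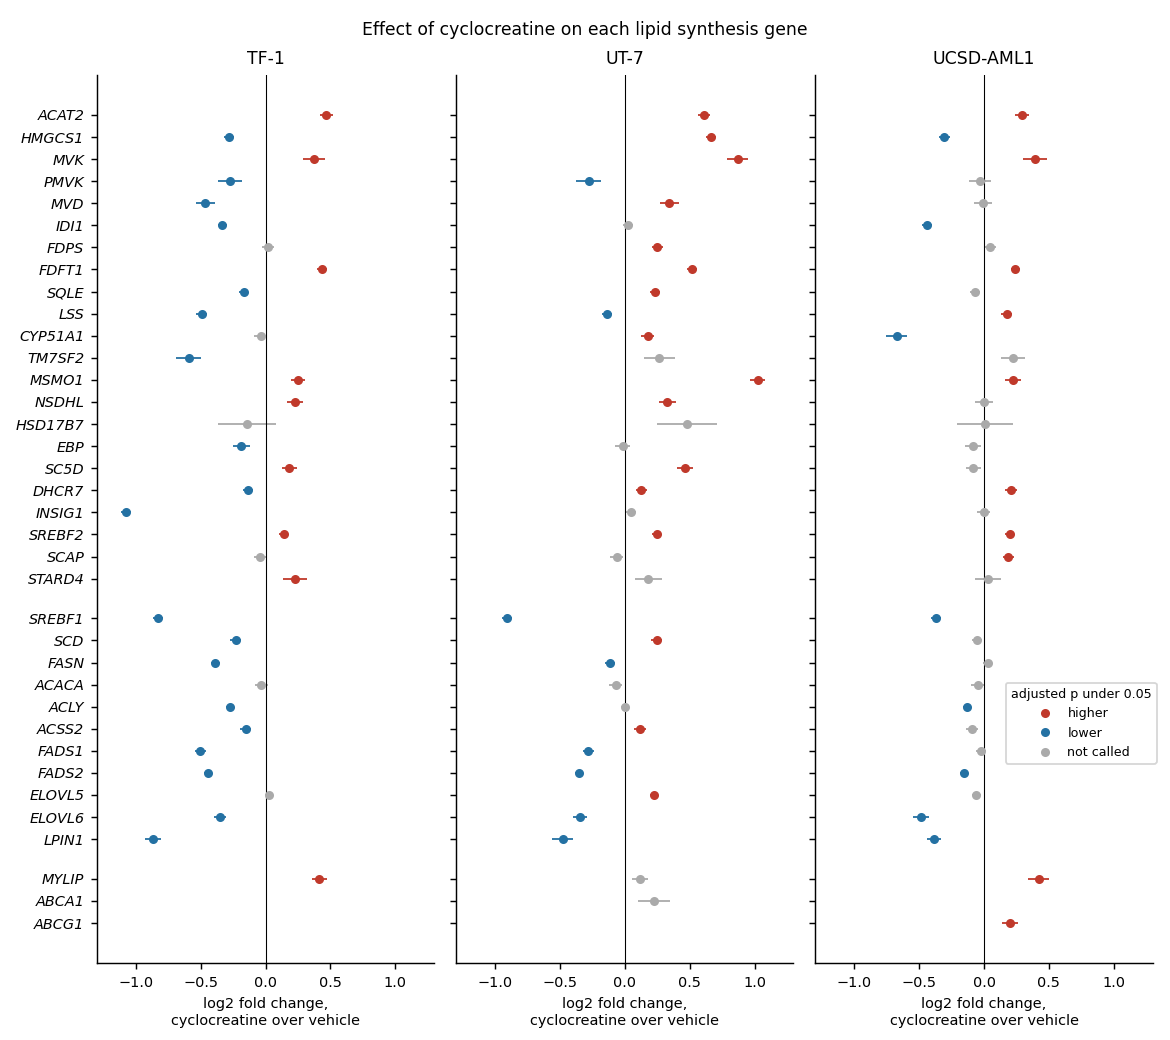
Log2 fold change of each gene, cyclocreatine over vehicle, with its SE (x axis), by gene (y axis; sterol arm at the top, fatty acid arm in the middle, LXR targets at the bottom) in TF-1, UT-7 and UCSD-AML1; red and blue points passed an adjusted p of 0.05 and grey points did not. ABCA1 is drawn for UT-7 only and ABCG1 for UCSD-AML1 only, since they were near 0 counts elsewhere; INSIG1 in TF-1 lies farthest left at -1.075 and MSMO1 in UT-7 farthest right at 1.02.

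Of the regulators in the sterol arm, SREBF2, which encodes SREBP2, rose slightly in every line. It was at 362, 394, 388 and 400 CPM in TF-1 cyclocreatine, against 351, 354, 346 and 350 in TF-1 vehicle. UT-7 had 344, 361, 355 and 327 CPM with cyclocreatine, against 289, 302, 292 and 286 with vehicle. UCSD-AML1 had 566, 571, 600 and 602 CPM with cyclocreatine, against 506, 524, 511 and 500 with vehicle. The groups did not overlap in any line, and the folds were small: 1.10 in TF-1 (log2 0.14 ± 0.03, SE; edgeR adjusted p = 0.000713), 1.19 in UT-7 (adjusted p = 2.59e-07) and 1.15 in UCSD-AML1 (adjusted p = 1.16e-05). The reference annotation names an antisense gene for SREBF2 and 1 each for CYP51A1 and STARD4, and no source used here says whether counting used the strand, so their reads cannot be told apart from those of their partners.

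INSIG1, whose protein retains SCAP in the endoplasmic reticulum and which SREBPs themselves induce, showed the widest gap between lines. TF-1 cyclocreatine libraries held 179, 182, 186 and 176 CPM, against 373, 391.8, 379 and 379 in TF-1 vehicle. In UT-7 it was at 177, 176, 163 and 169 CPM with cyclocreatine, against 162, 163, 167 and 172 with vehicle. In UCSD-AML1 it was at 46.7, 44.2, 47.4 and 42.2 CPM with cyclocreatine, against 45.1, 42.4, 50.01 and 43.6 with vehicle. INSIG1 was thus 2.11-fold lower in treated TF-1, with every treated library below every vehicle library (log2 fold change -1.075 ± 0.040, SE; edgeR adjusted p = 3.83e-23), while the groups overlapped in UT-7 (adjusted p = 0.404) and UCSD-AML1 (adjusted p = 1). Its treated level in TF-1 lay close to both UT-7 levels. SCAP, the escort protein, was called in UCSD-AML1 only, at 136 ± 3.31 CPM with cyclocreatine and 119 ± 5.33 with vehicle (1.14-fold, adjusted p = 0.000827). With library totals alone it was also called lower in TF-1 (log2 -0.126, adjusted p = 0.011).

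In the upper part of the mevalonate pathway, ACAT2, which joins acetyl-CoA units into acetoacetyl-CoA, and MVK, mevalonate kinase, rose in every line. ACAT2 in UT-7 was at 176, 174, 152 and 157 CPM with cyclocreatine, against 107, 111, 101 and 112 with vehicle, a 1.53-fold rise without overlap (log2 0.61 ± 0.05, SE; edgeR adjusted p = 3e-13). Its rise was 1.38-fold in TF-1, at 92.8 ± 4.53 CPM with cyclocreatine and 67.2 ± 3.79 with vehicle, and 1.22-fold in UCSD-AML1, at 76.9 ± 2.34 and 62.9 ± 1.98 CPM with cyclocreatine and vehicle. MVK in UT-7 was at 42.6, 39.0, 34.0 and 40.1 CPM with cyclocreatine, against 19.9, 21.9, 23.2 and 19.99 with vehicle, a rise of 1.83-fold (log2 0.87 ± 0.08, SE; adjusted p = 1.74e-11). In the other lines MVK was close to 1.3-fold higher, at 22.8 ± 2.64 CPM with cyclocreatine and 17.6 ± 1.62 with vehicle in TF-1 (adjusted p = 0.000286), and at 17.2 ± 1.14 CPM with cyclocreatine and 13.1 ± 0.628 with vehicle in UCSD-AML1 (adjusted p = 0.000648).

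HMGCS1, which makes HMG-CoA from acetoacetyl-CoA, moved in opposite directions. TF-1 held 298, 314, 339 and 325 CPM with cyclocreatine, against 401, 380, 368 and 403 with vehicle. UT-7 held 312, 316, 290 and 310 CPM with cyclocreatine, against 190, 194, 194 and 197 with vehicle. UCSD-AML1 held 127, 125, 126 and 127 CPM with cyclocreatine, against 156, 149, 166 and 154 with vehicle. No treated library overlapped the vehicle libraries of its line: HMGCS1 was 1.58-fold higher in UT-7 (log2 0.66 ± 0.04, SE; edgeR adjusted p = 7.46e-17), 1.22-fold lower in TF-1 (adjusted p = 5.83e-08) and 1.24-fold lower in UCSD-AML1 (adjusted p = 9.42e-08). After treatment TF-1 and UT-7, which differed by close to a factor of 2 in vehicle, held similar levels.

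The later mevalonate steps followed no single direction. MVD, which decarboxylates mevalonate pyrophosphate to isopentenyl pyrophosphate, was 1.38-fold lower in TF-1 (36.04 ± 5.85 CPM with cyclocreatine, 49.6 ± 3.84 with vehicle; edgeR adjusted p = 8.89e-07) and 1.27-fold higher in UT-7 (43.1 ± 2.41 CPM with cyclocreatine, 33.9 ± 0.597 with vehicle; adjusted p = 0.000239), and was not called in UCSD-AML1. IDI1, the isopentenyl isomerase, fell in TF-1 (204 ± 5.14 CPM with cyclocreatine, 258 ± 2.46 with vehicle) and in UCSD-AML1 (107.5 ± 1.67 CPM with cyclocreatine, 146 ± 5.69 with vehicle), and stood at 118 ± 6.04 CPM with cyclocreatine and 116 ± 3.101 with vehicle in UT-7. FDPS, farnesyl pyrophosphate synthase, was called in UT-7 only, at 179.5 ± 8.64 CPM with cyclocreatine and 151 ± 6.25 with vehicle. PMVK, phosphomevalonate kinase, was 1.21-fold lower in both TF-1 (adjusted p = 0.0123) and UT-7 (adjusted p = 0.0146); without TF-1 vehicle replicate 4 or TF-1 cyclocreatine replicate 2 the first call was lost (adjusted p = 0.0641 and 0.059), as it was with TF-1 fitted alone (0.08), and without UT-7 vehicle replicate 1 the second (0.0827). IDI1 and FDPS, like HSD17B7, CYP51A1 and SCD, have named pseudogene copies that could share reads with them, so their levels are less certain.

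At the entry to sterols, FDFT1, squalene synthase, rose in every line: to 320 ± 16.4 CPM, against 237 ± 6.46 in vehicle, in TF-1, to 714 ± 33.5, against 499 ± 15.1, in UT-7, and to 391.5 ± 9.94, against 331 ± 6.51, in UCSD-AML1. SQLE, squalene epoxidase and a rate-limiting step of the pathway, rose with FDFT1 in UT-7 only. SQLE was at 441, 455, 469 and 462 CPM in TF-1 cyclocreatine, against 510, 531, 489 and 526 in TF-1 vehicle. In UT-7 SQLE was at 229, 229, 215 and 221 CPM with cyclocreatine, against 198, 187, 189 and 187 with vehicle. In UCSD-AML1 SQLE was at 148, 150, 161 and 154 CPM with cyclocreatine, against 161, 157, 166 and 158 with vehicle. SQLE was therefore 1.13-fold lower in TF-1 (edgeR adjusted p = 6.05e-05) and 1.17-fold higher in UT-7 (adjusted p = 1.45e-06), both without overlap, and overlapped in UCSD-AML1 (adjusted p = 0.145).

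LSS, lanosterol synthase, had opposite calls in another set of lines. It fell to 90.5 ± 4.74 CPM in TF-1, against 128 ± 4.16 in vehicle (1.41-fold; edgeR adjusted p = 5.14e-13), fell slightly to 199 ± 7.99 CPM in UT-7, against 218 ± 5.89 in vehicle (adjusted p = 0.00373), and rose to 86.3 ± 1.27 CPM in UCSD-AML1, against 76.5 ± 2.12 in vehicle (adjusted p = 0.00108). CYP51A1, lanosterol demethylase, was at 10.2, 10.4, 8.66 and 10.8 CPM in UCSD-AML1 cyclocreatine, against 15.6, 16.8, 17.6 and 13.96 in UCSD-AML1 vehicle. This was a 1.59-fold fall without overlap (log2 -0.67 ± 0.08, SE; adjusted p = 9.92e-09). In UT-7 CYP51A1 rose to 104 ± 3.65 CPM, against 92.2 ± 3.39 in vehicle, and in TF-1 it was at 113.5 ± 5.01 CPM with cyclocreatine and 116 ± 5.702 with vehicle. The TF-1 value passed the threshold with library totals alone (log2 -0.117, adjusted p = 0.0418).

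MSMO1, which removes methyl groups at carbon 4 of the sterol, had the largest rise of the 22 sterol genes in any line. UT-7 held 74.0, 73.8, 62.6 and 67.0 CPM with cyclocreatine, against 37.1, 34.2, 31.4 and 33.9 with vehicle, a 2.03-fold rise (log2 1.02 ± 0.06, SE; edgeR adjusted p = 7.04e-17). MSMO1 was at 74.7 ± 2.77 CPM with cyclocreatine and 62.7 ± 4.37 with vehicle in TF-1, and at 56.7 ± 1.48 CPM with cyclocreatine and 48.7 ± 2.13 with vehicle in UCSD-AML1, rises of 1.19-fold and 1.17-fold. NSDHL, which acts after MSMO1, rose in TF-1 (1.17-fold) and UT-7 (1.26-fold). TM7SF2, a sterol reductase, was at 9.75, 10.1, 8.996 and 9.04 CPM in TF-1 cyclocreatine, against 15.01, 14.2, 15.2 and 12.8 in TF-1 vehicle. Its 1.51-fold fall there (adjusted p = 2.05e-06) stood beside values above 1 in the other lines that did not pass the test, 1.2 in UT-7 (adjusted p = 0.0639) and 1.17 in UCSD-AML1 (adjusted p = 0.0511). With each line fitted on its own libraries these were called (adjusted p = 0.0328 and 0.0118).

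Of the last steps, SC5D, the sterol desaturase, rose to 41.0 ± 1.83 CPM in UT-7, against 29.7 ± 1.44 in vehicle (1.38-fold), and to 58.4 ± 5.32 CPM in TF-1, against 51.5 ± 1.94 in vehicle, where the groups overlapped and the call was lost with library totals alone (adjusted p = 0.12). DHCR7, which makes cholesterol from its immediate precursor, fell in TF-1 (192.5 ± 4.45 CPM with cyclocreatine, 212 ± 4.37 with vehicle) and rose in UCSD-AML1 (71.9 ± 3.498 CPM with cyclocreatine, 62.3 ± 1.04 with vehicle). Its rise in UT-7, at 109 ± 3.97 CPM with cyclocreatine and 99.7 ± 5.396 with vehicle (edgeR adjusted p = 0.0123), was lost without UT-7 vehicle replicate 4 (0.0965), without UT-7 cyclocreatine replicate 1 (0.0604) and with library totals alone (0.0768). EBP, the sterol isomerase, was 1.14-fold lower in TF-1 (adjusted p = 0.0104), a call lost without TF-1 vehicle replicate 2 (0.081) or cyclocreatine replicate 3 or 4 (0.0546 and 0.0747) and with TF-1 fitted alone (0.0965). STARD4, a carrier of sterol between membranes, was 1.17-fold higher in TF-1 (adjusted p = 0.0343), a call that most alternatives ended. It was lost with library totals alone (0.202), DESeq2 (0.0638), limma-voom (0.0616), no filter (0.0505) and TF-1 fitted alone (0.12), and, at 0.059 to 0.182, without 1 of TF-1 vehicle replicates 1 and 3 or cyclocreatine replicates 2, 3 and 4. HSD17B7, a keto-reductase of the demethylation complex, was low in every group, at 2.24 to 3.14 CPM on average.

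Promoter sequence was taken from RefSeq (GRCh38.p14; 250 bases before to 50 after each start), in which 31 of the 36 genes were found by symbol; FASN, SQLE, ACAT2, FDFT1 and ABCG1 were not matched. Motifs were searched on both strands as exact letters. TCACNCCAC, the type of sterol regulatory element that SREBPs bind, was in 1 of 31 member promoters (3.23%), that of SREBF2, and in 1.39% of the 27305 genes of the table. The shorter CACNCCAC, which lies within it and was added after the data were seen, was in 7 of 31 (22.6%), against 7.05% of the table. CCAAT, the box bound by NF-Y, which acts beside SREBPs, was in 23 of 31 (74.2%), against 39.7% of the table, and in 16 of 19 of the sterol arm. GGGCGG, a box bound by Sp1, was in 29 of 31 (93.5%), against 48.3%, and CACGTG, an E-box, in 6 of 31 (19.4%), against 8.77%. Among genes expressed enough to be tested these shares were 1.46% for TCACNCCAC, 7.97% for CACNCCAC, 43.1% for CCAAT, 75.0% for GGGCGG and 12.4% for CACGTG. A match is a description of the letters in a window, and nothing here shows binding.

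The stretches below show the matches in the gene of SREBP2 itself and in 4 genes chosen after their values were seen: MSMO1 and HMGCS1 for their rise in UT-7, INSIG1 for its fall in TF-1 and SCD for its opposite calls. Capitals mark TCACNCCAC or CACNCCAC and CCAAT on either strand, 5′ to 3′ on the strand of the gene.
SREBF2, chr22:41832935-41833024, plus strand: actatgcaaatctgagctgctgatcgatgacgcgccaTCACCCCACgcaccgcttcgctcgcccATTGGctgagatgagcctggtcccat
MSMO1, chr4:165327459-165327608, plus strand: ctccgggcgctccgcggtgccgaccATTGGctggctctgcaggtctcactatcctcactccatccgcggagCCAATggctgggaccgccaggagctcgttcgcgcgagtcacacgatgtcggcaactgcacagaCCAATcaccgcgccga
HMGCS1, chr5:43313513-43313612, minus strand: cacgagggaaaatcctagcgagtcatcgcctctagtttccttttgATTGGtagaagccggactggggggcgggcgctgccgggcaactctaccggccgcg
INSIG1, chr7:155297628-155297767, plus strand: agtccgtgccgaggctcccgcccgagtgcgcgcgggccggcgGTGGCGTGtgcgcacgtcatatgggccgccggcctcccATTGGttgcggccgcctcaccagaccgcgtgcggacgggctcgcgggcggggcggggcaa
SCD, chr10:100346983-100347142, plus strand: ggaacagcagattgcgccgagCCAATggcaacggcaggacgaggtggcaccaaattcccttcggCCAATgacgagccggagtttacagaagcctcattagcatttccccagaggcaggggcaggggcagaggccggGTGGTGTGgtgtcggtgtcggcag
In SREBF2 the longer element lies before the CCAAT box, and INSIG1 and SCD, which moved differently across the lines, both carry the shorter element on the opposite strand and CCAAT. MSMO1 shows 3 CCAAT boxes in its stretch and HMGCS1 shows 1. Both stretches end before another CCAAT box, at position -34 in MSMO1 and -100 in HMGCS1, so these counts depend on where they end.

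In the fatty acid arm, the gene of SREBP1 itself fell in every line. SREBF1 was at 174, 157, 150 and 164 CPM in TF-1 cyclocreatine, against 282, 275, 292 and 300 in TF-1 vehicle. In UT-7 it was at 124, 121, 129 and 129 CPM with cyclocreatine, against 231, 234, 245 and 233 with vehicle. In UCSD-AML1 it was at 143, 146, 145 and 148 CPM with cyclocreatine, against 191, 191, 184 and 188 with vehicle. The groups were far apart in TF-1 and UT-7 and nearer in UCSD-AML1, with falls of 1.78-fold (log2 -0.83 ± 0.04, SE; edgeR adjusted p = 3.54e-20), 1.87-fold (log2 -0.91 ± 0.04; adjusted p = 1.15e-20) and 1.3-fold (log2 -0.37 ± 0.04; adjusted p = 5.49e-10) in that order of lines. SREBF1 and SREBF2 thus moved in opposite directions in each of the 3 lines.

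LPIN1, a phosphatidate phosphatase of triglyceride synthesis and a target of SREBP1, fell beside SREBF1. It was at 27.5, 34.4, 32.5 and 35.9 CPM in TF-1 cyclocreatine, against 63.5, 54.0, 57.3 and 63.4 in TF-1 vehicle, a 1.82-fold fall without overlap (edgeR adjusted p = 1.34e-14). In UT-7 it was 1.39-fold lower, at 17.2 ± 0.952 CPM with cyclocreatine and 24.0 ± 1.38 with vehicle, and in UCSD-AML1 1.31-fold lower, at 97.6 ± 4.08 CPM with cyclocreatine and 127.5 ± 2.69 with vehicle. ELOVL6, which extends palmitate, and FADS2, a desaturase of polyunsaturated fatty acids, were the other genes that fell in every line. ELOVL6 was at 220 ± 21.0 CPM with cyclocreatine and 280.5 ± 10.8 with vehicle in TF-1, at 53.0 ± 2.37 and 67.4 ± 1.79 CPM with cyclocreatine and vehicle in UT-7, and at 33.1 ± 0.844 and 46.3 ± 1.99 CPM with cyclocreatine and vehicle in UCSD-AML1. FADS2 was 1.36-fold lower in TF-1, 1.28-fold lower in UT-7 and 1.12-fold lower in UCSD-AML1.

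FASN, fatty acid synthase, was at 1456, 1568, 1586 and 1522 CPM in TF-1 cyclocreatine, against 2145, 1856, 2014 and 2005 in TF-1 vehicle. In UT-7 FASN was at 714, 680, 734 and 689 CPM with cyclocreatine, against 733, 772, 791 and 755 with vehicle. In UCSD-AML1 FASN was at 730, 743, 701 and 724 CPM with cyclocreatine, against 696, 732, 716 and 699 with vehicle. FASN fell clearly in TF-1 (1.31-fold, no overlap; edgeR adjusted p = 1.07e-11), fell slightly in UT-7 (1.08-fold, 1 treated library within the vehicle range; adjusted p = 0.00933) and overlapped in UCSD-AML1 (adjusted p = 0.606). ACLY, which supplies cytosolic acetyl-CoA from citrate, fell in TF-1 (399 ± 17.8 CPM with cyclocreatine, 482.5 ± 3.89 with vehicle) and UCSD-AML1 (350.4 ± 5.61 CPM with cyclocreatine, 383 ± 12.1 with vehicle), and was level in UT-7 at 547 ± 16.6 CPM with cyclocreatine and 547 ± 4.69 with vehicle. ACACA, acetyl-CoA carboxylase, did not pass the test in any line (adjusted p = 0.281 to 0.603). ACSS2, which makes acetyl-CoA from acetate, fell 1.11-fold in TF-1 (adjusted p = 0.00257); its 1.09-fold rise in UT-7 (adjusted p = 0.0298) was lost without UT-7 vehicle replicate 2 or 4 or cyclocreatine replicate 1 or 2 (adjusted p = 0.0736 to 0.112), with library totals alone (0.124) and with no filter (0.0645).

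The desaturases and elongases did not move as 1 block. SCD, which makes oleate from stearate and is a target of both SREBP1 and LXR, was at 1757, 2008, 2099 and 2085 CPM in TF-1 cyclocreatine, against 2372, 2292, 2283 and 2390 in TF-1 vehicle. In UT-7 SCD was at 530, 530, 514 and 488 CPM with cyclocreatine, against 450, 440, 422 and 430 with vehicle. In UCSD-AML1 SCD was at 586, 590, 602 and 594 CPM with cyclocreatine, against 604, 613, 650 and 594 with vehicle. It was thus 1.17-fold lower in TF-1 (edgeR adjusted p = 3.45e-06) and 1.18-fold higher in UT-7 (adjusted p = 3.73e-06), both without overlap, with no call in UCSD-AML1 (adjusted p = 0.309).

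FADS1, the desaturase that acts after FADS2, was at 157, 180, 186 and 192 CPM in TF-1 cyclocreatine, against 257, 248, 249 and 260 in TF-1 vehicle. In UT-7 FADS1 was at 215, 221, 230 and 221 CPM with cyclocreatine, against 266, 266, 273 and 273 with vehicle. In UCSD-AML1 FADS1 was at 311, 297, 318 and 322 CPM with cyclocreatine, against 307, 318, 326 and 319 with vehicle. FADS1 therefore fell without overlap in TF-1 (1.42-fold; edgeR adjusted p = 4.87e-13) and UT-7 (1.22-fold; adjusted p = 5.04e-07), and the UCSD-AML1 groups overlapped (adjusted p = 0.683). ELOVL5, which extends polyunsaturated fatty acids, rose in UT-7 only, to 518 ± 7.61 CPM, against 444 ± 6.29 in vehicle (1.17-fold; adjusted p = 2.51e-07).

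**Figure D3:**
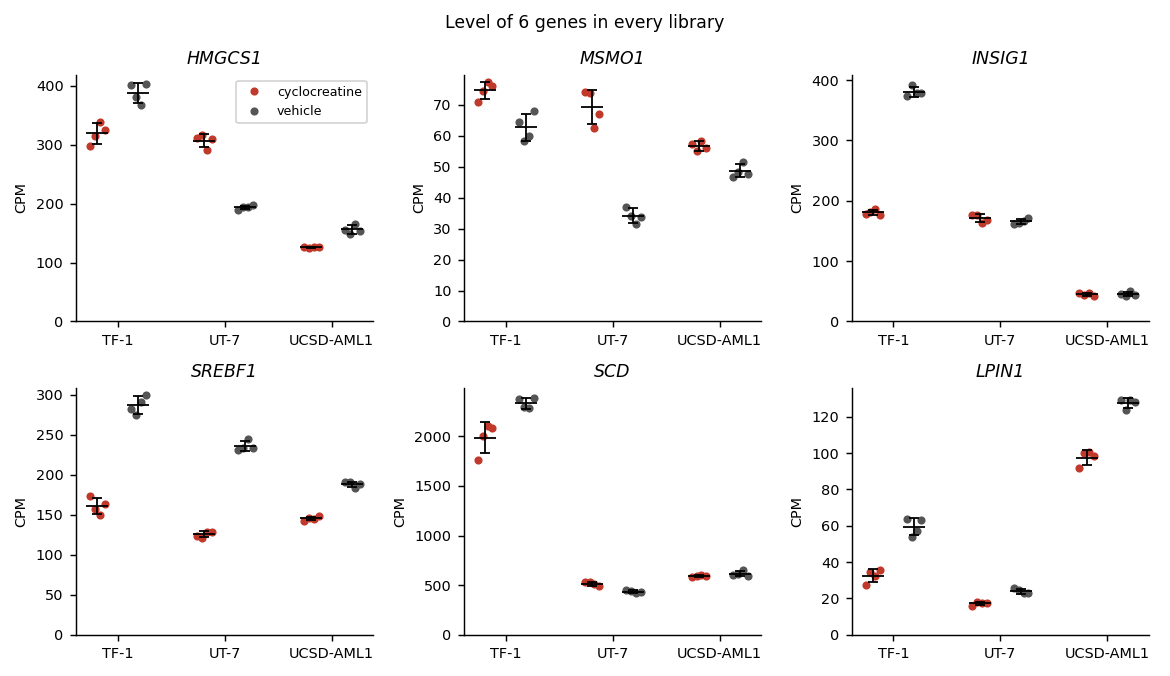
CPM (y axis, from 0) of HMGCS1, MSMO1, INSIG1, SREBF1, SCD and LPIN1 in every library of TF-1, UT-7 and UCSD-AML1 (x axis), with cyclocreatine in red on the left and vehicle in grey on the right; points are libraries, bar and whiskers are mean and SD (n = 4). INSIG1 is at 176 to 186 CPM in treated TF-1 against 373 to 391.8 in vehicle and overlaps in the other lines, whereas SREBF1 is below vehicle in all 3 lines.

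Of the LXR targets, MYLIP, a ubiquitin ligase that sends lipoprotein receptors to degradation, was the one expressed in every line. MYLIP was at 48.1, 52.4, 53.0 and 60.0 CPM in TF-1 cyclocreatine, against 41.0, 42.9, 37.7 and 39.1 in TF-1 vehicle. In UT-7 it was at 53.1, 51.9, 49.4 and 53.8 CPM with cyclocreatine, against 50.1, 47.6, 47.9 and 46.5 with vehicle. In UCSD-AML1 it was at 14.9, 14.6, 14.3 and 15.6 CPM with cyclocreatine, against 11.6, 10.7, 11.4 and 10.6 with vehicle. MYLIP rose without overlap in TF-1 (1.33-fold; edgeR adjusted p = 1.55e-07) and UCSD-AML1 (1.34-fold; adjusted p = 4.45e-05), and the UT-7 groups overlapped (1.08; adjusted p = 0.108, or 0.0227 with UT-7 fitted alone).

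The sterol exporters were each expressed in 1 line. ABCA1, which passes cholesterol to apolipoproteins, was at 21.9, 22.4, 27.4 and 24.7 CPM in UT-7 cyclocreatine, against 20.2, 20.4, 20.8 and 21.0 in UT-7 vehicle, and under 1 CPM in every TF-1 and UCSD-AML1 library. The UT-7 groups did not overlap, and the fold of 1.17 did not pass the test in the fit of all lines (log2 0.23 ± 0.12, SE; edgeR adjusted p = 0.135), whereas it did with UT-7 fitted alone (0.00307) and with limma-voom (0.0412). ABCG1, which passes cholesterol to lipoprotein particles, was at 58.8, 62.4, 63.3 and 64.1 CPM in UCSD-AML1 cyclocreatine, against 55.4, 55.5, 51.0 and 54.9 in UCSD-AML1 vehicle. It was 1.15-fold higher without overlap (adjusted p = 0.00992). ABCG1 had 0 counts in all 8 TF-1 libraries and at most 0.154 CPM in a UT-7 library.

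The effects themselves differed between lines. Testing the difference of the 2 effects, TF-1 minus UT-7, called 21 of the 36 genes, 1 higher and 20 lower, beside 27.5% of all genes in either direction. TF-1 minus UCSD-AML1 called 16 genes, 3 higher and 13 lower, beside 29.1% of all genes, and UT-7 minus UCSD-AML1 called 23, 16 higher and 7 lower, beside 23.0%. Each pair of differences shares the libraries of 1 line. Without TF-1 cyclocreatine replicate 1 the counts were 25 for TF-1 minus UT-7, with ACAT2, FDFT1, EBP and FADS2 added, and 19 for TF-1 minus UCSD-AML1, with PMVK, STARD4 and ELOVL6 added. The differences of ACLY and FASN between UT-7 and UCSD-AML1, counted among the 23, were lost under several alternatives. Those of FDFT1 and SC5D between TF-1 and UCSD-AML1, counted among the 16, were lost with library totals alone (edgeR adjusted p = 0.0618 and 0.0793). INSIG1 had the largest called difference between TF-1 and each other line, -1.12 ± 0.06 against UT-7 and -1.07 ± 0.06 against UCSD-AML1 (log2, SE; edgeR adjusted p = 3.95e-17 and 5.04e-16). HMGCS1 differed by -0.95 ± 0.05 between TF-1 and UT-7 (adjusted p = 7e-16) and by 0.97 ± 0.06 between UT-7 and UCSD-AML1 (adjusted p = 5.03e-16). TM7SF2 differed by -0.86 ± 0.15 between TF-1 and UT-7 and by -0.82 ± 0.13 between TF-1 and UCSD-AML1. MVD differed by -0.81 ± 0.10 between TF-1 and UT-7.

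Among the other genes with opposite calls, the TF-1 effect was below the UT-7 effect for SQLE (-0.40 ± 0.05), SCD (-0.48 ± 0.06), ACSS2 (-0.27 ± 0.06) and DHCR7 (-0.26 ± 0.06), all log2 differences with SE and edgeR adjusted p of at most 0.00104. DHCR7 also differed by -0.34 ± 0.06 between TF-1 and UCSD-AML1. LSS differed by -0.67 ± 0.06 between TF-1 and UCSD-AML1 and by -0.31 ± 0.06 between UT-7 and UCSD-AML1. CYP51A1, which fell in UCSD-AML1 alone, differed by 0.64 ± 0.09 between TF-1 and UCSD-AML1 and by 0.85 ± 0.09 between UT-7 and UCSD-AML1. The rises of MSMO1 and SC5D in UT-7 exceeded their effects in UCSD-AML1 by 0.80 ± 0.08 and 0.55 ± 0.08. SREBF1, the gene that fell everywhere, fell less in UCSD-AML1: the effect in TF-1 minus that in UCSD-AML1 was -0.46 ± 0.05 (adjusted p = 2.79e-08), and UT-7 minus UCSD-AML1 was -0.53 ± 0.06 (adjusted p = 1.47e-09). Differences are written first named line minus second.

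**Figure D4:**
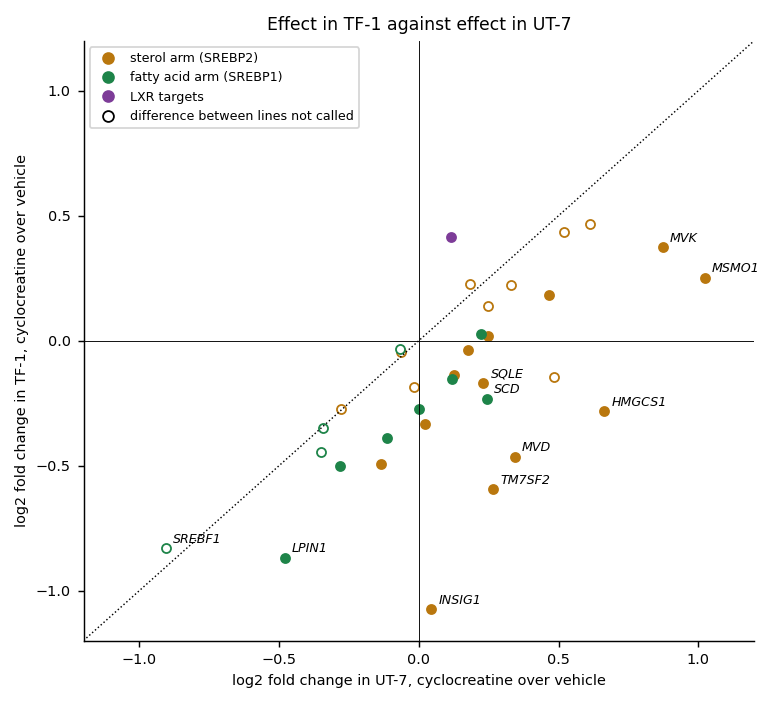
Log2 fold change of each gene, cyclocreatine over vehicle, in TF-1 (y axis) against UT-7 (x axis), coloured by arm, with ABCA1 and ABCG1 left out; filled points have a called difference between the lines, open points do not, and the dotted line marks equal effects. HMGCS1, MVD, SQLE and SCD lie in the lower right quadrant, higher in UT-7 and lower in TF-1, and INSIG1 lies at -1.075 in TF-1 and 0.045 in UT-7.

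Before treatment the lines already differed in most of the 36 genes. Between the vehicle groups, TF-1 against UT-7 gave 21 genes higher and 13 lower (79.7% of all genes tested called), TF-1 against UCSD-AML1 23 higher and 7 lower (84.0% of all genes), and UT-7 against UCSD-AML1 18 higher and 13 lower (81.5% of all genes). Of the 36 genes, 58.3% were thus higher and 36.1% lower for TF-1 against UT-7, above that background. The shares were 63.9% and 19.4% for TF-1 against UCSD-AML1 and 50% and 36.1% for UT-7 against UCSD-AML1, near it. Some of these calls are weak or were set by the filter, as follows. ABCA1 passed the filter through UT-7 alone and ABCG1 through UCSD-AML1 alone, so their calls against those lines were set by the filter. Such calls are among the 13 lower of TF-1 against UT-7, the 7 lower, and both counts of UT-7 against UCSD-AML1. The 13 lower of TF-1 against UT-7 also include ABCG1, with 0 counts in TF-1 vehicle and 3 in UT-7 vehicle, too few to compare. FADS1 is among them too. Its edgeR call (adjusted p = 0.0473) was lost with RLE size factors (0.158), DESeq2 (0.173) and most single libraries left out. The 23 higher include ABCA1, with 15 counts in TF-1 vehicle and 3 in UCSD-AML1 vehicle, lost without TF-1 vehicle replicate 1 (0.126) or UCSD-AML1 vehicle replicate 1 or 3 (0.0838 and 0.0698). TF-1 vehicle held the highest level of SCD, at 2334 ± 54.8 CPM, against 435 ± 11.96 in UT-7 vehicle and 615 ± 24.5 in UCSD-AML1 vehicle. FASN was at 2005 ± 118.5 CPM in TF-1 vehicle, 763 ± 24.7 in UT-7 vehicle and 711 ± 16.7 in UCSD-AML1 vehicle. ELOVL6 was at 280.5 ± 10.8 CPM in TF-1 vehicle, 67.4 ± 1.79 in UT-7 vehicle and 46.3 ± 1.99 in UCSD-AML1 vehicle.

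Vehicle levels of the sterol genes INSIG1, SQLE, HMGCS1 and DHCR7 ran in the order TF-1, UT-7, UCSD-AML1, each step called. INSIG1 was at 381 ± 7.92 CPM for TF-1, 166 ± 4.51 for UT-7 and 45.3 ± 3.35 for UCSD-AML1, and SQLE at 514 ± 19.0, 190 ± 5.47 and 161 ± 4.01 CPM in that order. FDFT1 had another order, with UT-7 highest at 499 ± 15.1 CPM, UCSD-AML1 next at 331 ± 6.51 and TF-1 lowest at 237 ± 6.46. SREBF2 was highest in UCSD-AML1 vehicle, at 510 ± 10.3 CPM, with 350.1 ± 3.37 in TF-1 and 292 ± 6.91 in UT-7, and SREBF1 was highest in TF-1, at 287 ± 11.0 CPM, with 236 ± 6.36 in UT-7 and 188 ± 3.34 in UCSD-AML1. CYP51A1 was at 116 ± 5.702 and 92.2 ± 3.39 CPM in TF-1 and UT-7 and at 16.0 ± 1.57 CPM in UCSD-AML1. LPIN1 was at 59.5 ± 4.69 CPM for TF-1, 24.0 ± 1.38 for UT-7 and 127.5 ± 2.69 for UCSD-AML1.

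**Figure D5:**
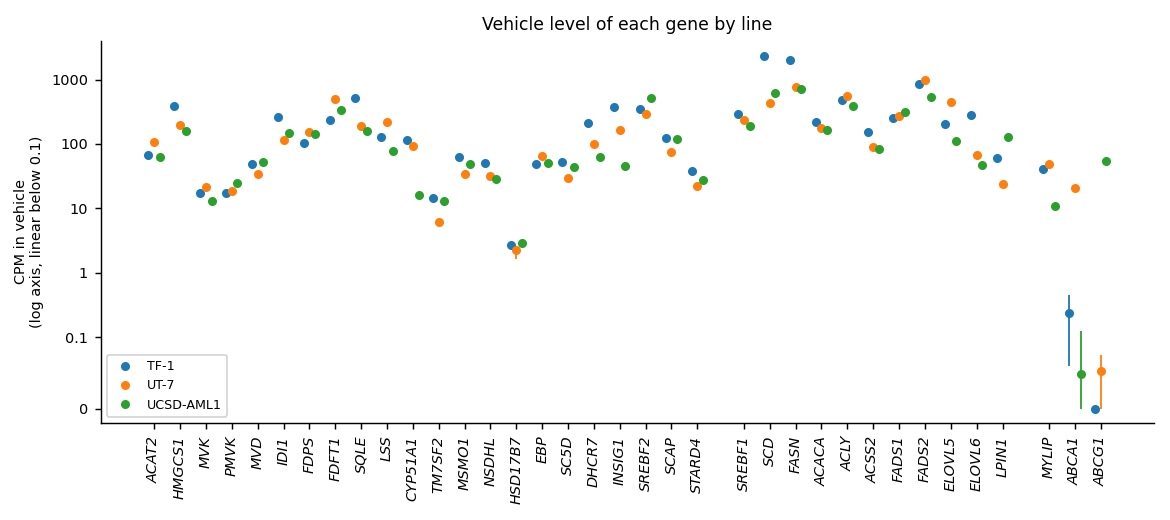
Mean CPM in the 4 vehicle libraries of each line (y axis, log scale, linear below 0.1), with a line from the lowest to the highest library, for each gene (x axis; sterol arm, fatty acid arm and LXR targets from left to right). SCD and FASN are highest in TF-1, CYP51A1 is lowest in UCSD-AML1, and ABCA1 and ABCG1 are each above 1 CPM in a single line.

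Genes that act next to these pathways were read from 6 further lists, whose counts stand beside the shares of all genes called, 26.7% higher and 29.3% lower in TF-1, 22.5% and 23.3% in UT-7, and 19.1% and 21.3% in UCSD-AML1. The lists are short and many of their counts are near those shares. Of 10 genes that process SREBPs or encode LXRs and their partners, 2 rose and 4 fell in TF-1, 1 rose and 2 fell in UT-7, and 3 rose and 3 fell in UCSD-AML1. The smallest p-values in TF-1 were those of NR1H3, the LXR alpha gene (1.42-fold higher), INSIG2, the relative of INSIG1 (1.33-fold lower), and RNF139 (1.12-fold lower). In UT-7 they were those of RXRA, the partner of LXR (1.47-fold lower), RNF139 (1.16-fold lower) and MBTPS1, the protease that first cuts SREBPs (1.11-fold higher). In UCSD-AML1 they were those of RXRA (1.18-fold lower), NR1H2, the LXR beta gene (1.26-fold higher), and RNF139 (1.2-fold lower).

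Of 7 further LXR targets, 4 passed the filter; 3 of these rose in TF-1, 2 rose in UT-7 and 1 fell in UCSD-AML1. TTC39B rose 1.61-fold in TF-1 and 2-fold in UT-7, and was at 20.2 CPM with cyclocreatine and 19.1 with vehicle in UCSD-AML1. SMPDL3A, a phosphodiesterase, rose 1.83-fold in TF-1 and 1.72-fold in UT-7. PLTP, the phospholipid transfer protein, rose 1.10-fold in TF-1, fell 1.36-fold in UCSD-AML1, and was at 125 CPM with cyclocreatine and 134.5 with vehicle in UT-7. LPCAT3, which remodels phospholipids, was at 84.0 CPM with cyclocreatine and 82.6 with vehicle in UCSD-AML1.

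In the isoprenoid branch, which leaves the mevalonate pathway for protein prenylation, dolichol and ubiquinone, 6 of 12 genes rose and 3 fell in TF-1, 3 rose and 4 fell in UT-7, and 2 rose and 4 fell in UCSD-AML1. ICMT, the methyltransferase that finishes prenylated proteins, rose 1.38-fold in TF-1, 1.22-fold in UT-7 and 1.34-fold in UCSD-AML1. RABGGTB rose 1.44-fold in TF-1, while PDSS1, which builds the ubiquinone tail, fell 1.40-fold in TF-1 and 1.29-fold in UT-7. FNTA, a subunit of farnesyltransferase, fell 1.18-fold in both UT-7 and UCSD-AML1, and NUS1, needed for dolichol, fell 1.26-fold in UCSD-AML1. Of 10 tested genes of sterol uptake, transport and storage, 2 rose and 1 fell in TF-1, 3 rose and 2 fell in UT-7, and 2 rose and 0 fell in UCSD-AML1. NPC2, which moves cholesterol out of lysosomes, rose 1.28-fold in TF-1 and UT-7 and 1.21-fold in UCSD-AML1. VLDLR fell 2.13-fold in TF-1 from few reads, to 1.62 CPM, against 3.46 in vehicle, where TMEM97 rose 1.12-fold. In UT-7 LRP8 fell 1.32-fold and OSBP rose 1.32-fold, and in UCSD-AML1 SCARB1 rose 1.09-fold, with TMEM97 at 78.3 CPM with cyclocreatine and 73.6 with vehicle.

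Of 21 tested genes of fatty acid elongation, activation and glycerolipid synthesis, 8 rose and 9 fell in TF-1, 6 rose and 6 fell in UT-7, and 7 rose and 8 fell in UCSD-AML1. ACSL5, which activates fatty acids with coenzyme A, fell 1.99-fold in TF-1 and 1.37-fold in UCSD-AML1, and ACSL4 fell 1.44-fold in TF-1, where the elongase ELOVL7 rose 1.76-fold. HSD17B12, a reductase of the elongation cycle, fell 1.54-fold in UT-7 and 1.37-fold in UCSD-AML1. PTPLAD1, a dehydratase of that cycle, fell 1.23-fold and FADS3 fell 1.39-fold in UT-7. LPIN2, the relative of LPIN1, rose 1.83-fold in UCSD-AML1, where LPIN1 fell. In fatty acid oxidation, 8 of 19 tested genes rose and 6 fell in TF-1, 5 rose and 4 fell in UT-7, and 3 rose and 5 fell in UCSD-AML1. ACADVL, the dehydrogenase of very long chains, rose 1.42-fold in TF-1, 1.29-fold in UT-7 and 1.25-fold in UCSD-AML1. CPT1A, which admits fatty acids to mitochondria, fell 1.46-fold in TF-1, where ACADS rose 1.38-fold. ACADM fell 1.23-fold in UT-7 and 1.28-fold in UCSD-AML1, and CPT2 fell 1.28-fold in UCSD-AML1.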

How the data were processed

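Total RNA was purified by RNeasy and read on HiSeq instruments, per the labels. What the authors deposited are unnormalised counts for each RefSeq symbol, all whole numbers; RSEM, TopHat2, FastQC, GRCh37 and hg19 are listed, per the submitters' processing notes, with neither version nor role. Libraries were assigned to groups from their labels, and none was pooled or left out. Counts were fitted with edgeR 4.0.16 in R 4.3.3: filterByExpr (count 10, total 15), TMM, 1 group-means model of 24 libraries with robust quasi-likelihood dispersions, two-sided tests, and Benjamini-Hochberg adjustment over all 14588 genes in each contrast. Each SE was obtained by dividing the absolute log2 fold change by the root of its F statistic. Log2 CPM used a prior count of 2. limma 3.58.1 and DESeq2 1.42.0 gave alternatives; Python 3.11.15 and matplotlib 3.10.9 drew the plots. The statistics were tested on counts simulated from TF-1 vehicle means with 1 dispersion, a simpler setting than the data. At a log2 change of 0.25, 38 of 67 changed genes were recovered, at 0.5 62 of 67 and at 1 66 of 66. Of 13177 unchanged genes, 11 were called. A small change that was not called is therefore not shown to be absent. Counts of all 36 replicate pairs differed by more than counting noise, so no library was a copy.

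Genes and lists were chosen with earlier results of these data known. Library values are given for genes called with at least 5 CPM and 1.5-fold, and for 11 fixed genes (SREBF1, SREBF2, INSIG1, HMGCS1, SQLE, SCD, FASN, FADS1, ABCA1, ABCG1, MYLIP); differences for opposite calls and the 4 largest per pair; of each further list, up to 3 genes with the smallest p per line at 1 CPM or more. The differences of SREBF1 between lines lie outside this rule and were added after values were seen, as were 4 of the 5 promoters printed; the rule for promoters, a TCACNCCAC match off chromosome 8, gave SREBF2. Some genes of these pathways are not analysed here. Alternatives were scaling, tool, filter, libraries fitted, replicate block and each library left out.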

Additional observations from a re-analysis of the deposited data

Results flagged for a closer look

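The effect of cyclocreatine differed between lines, by a test of the difference itself, in 21 of the 36 genes for TF-1 minus UT-7, 16 for TF-1 minus UCSD-AML1 and 23 for UT-7 minus UCSD-AML1, beside 27.5%, 29.1% and 23.0% of all genes in that order. For TF-1 minus UT-7 the log2 differences were -0.947 for HMGCS1, -0.807 for MVD, -0.401 for SQLE, -0.858 for TM7SF2, -0.264 for DHCR7, -1.119 for INSIG1, -0.476 for SCD and -0.272 for ACSS2. For TF-1 minus UCSD-AML1 they were -0.667 for LSS, 0.636 for CYP51A1, -0.817 for TM7SF2, -0.343 for DHCR7 and -1.072 for INSIG1. For UT-7 minus UCSD-AML1 they were 0.971 for HMGCS1, -0.309 for LSS, 0.848 for CYP51A1, 0.8 for MSMO1 and 0.550 for SC5D.

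In 10 of 208 groups of 4 libraries examined, 1 library lay far from the others, and chance gives about 1 in 20. In UT-7 cyclocreatine these were FDFT1 in replicate 3 (664.3 CPM, others 726.5 to 735.3), HSD17B7 in replicate 1 (3.6 CPM, others 2.93 to 3.028) and STARD4 in replicate 1 (23.18 CPM, others 26.22 to 26.37). TF-1 cyclocreatine replicate 1 stood apart in SCAP (128.7 CPM, others 113.9 to 115.3). In UT-7 vehicle they were SQLE in replicate 1 (198.5 CPM, others 187.1 to 188.9) and DHCR7 in replicate 4 (91.59 CPM, others 102.1 to 102.8). TF-1 vehicle replicate 1 stood apart in ACACA (229.6 CPM, others 212.7 to 214.6). In UCSD-AML1 vehicle they were SC5D in replicate 4 (46.14 CPM, others 43.49 to 43.74), LPIN1 in replicate 2 (123.5 CPM, others 128.4 to 129.2) and ABCG1 in replicate 3 (50.98 CPM, others 54.85 to 55.5).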

How the results depend on the processing

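No log2 fold change that had passed the threshold turned round under any alternative tried for the 36 genes. With library totals alone the sterol arm had 5 genes higher in TF-1 in place of 8. LXR targets higher in UT-7 numbered 0 in the fit of all lines, 1 with limma-voom (ABCA1) and 2 with only the lines compared. Leaving out 1 library at a time, the sterol genes lower in UT-7 numbered 1 to 2. The sterol median log2 fold change ran from -0.171 to -0.052 in TF-1, 0.21 to 0.258 in UT-7 and 0.004 to 0.046 in UCSD-AML1 over all alternatives. Of the calls and non-calls compared, 317 of DESeq2 stayed on their side of the threshold, with 4 gained and 3 lost. There were 12 gained and 8 lost with library totals alone, 14 and 4 with only the lines compared, 3 and 1 with RLE size factors, 2 and 2 with limma-voom, 2 and 4 with no filter, and 20 and 61 over all fits that left out 1 library. Same-numbered libraries did not deviate together (12 correlations of -0.048 to 0.0715). No pairing by number was thus seen in the data, although a weak shared effect could have been missed. With the number as a replicate block, 213 values kept their side and 3 differences between lines were lost: ACLY (adjusted p = 0.0706) and FASN (0.0869) for UT-7 minus UCSD-AML1, and CYP51A1 (0.0516) for TF-1 minus UT-7. ACLY was also lost with library totals alone (0.136), no filter (0.0867) and several left-out libraries (up to 0.0753), and FASN with limma-voom (0.0525) and several left-out libraries (up to 0.108). The cause of these changes was not tested. Genes near 0 counts, such as ABCG1 in TF-1, are not resolved at this depth.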
